A study of Mus musculus with 16 samples.

Results

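The AP-1 and immediate early genes described here are Fos, Fosb, Jun, Junb, Jund, Atf3, Egr1, Ier2 and Ier3, 9 named genes of the 55414 in the deposited count table. All 9 passed the filter on low counts that left 11809 genes for testing. They were measured in 16 libraries of Paneth cells (PCs), each library from sorted cells of the small intestine of C57BL/6J mice. A first injection of PBS or DEX was followed after 1 h by PBS or tumour necrosis factor (TNF), and mice were sampled 3 h later. The 4 groups, each of 4 libraries, are written with the first injection before the plus sign: PBS+PBS and PBS+TNF had no DEX, and DEX+PBS and DEX+TNF had it. All mice thus received 2 injections, and the control group had PBS both times. DEX commonly stands for dexamethasone, a synthetic glucocorticoid, but the sources used here do not write it out, and they do not give doses, age or sex.

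AP-1 is a family of dimeric transcription factors built from Fos, Jun and ATF proteins, which join through a leucine zipper and bind DNA through a neighbouring basic region. Fos proteins need a partner, usually a Jun protein, whereas Jun proteins can also pair with each other. Immediate early genes are switched on within minutes of a stimulus without new protein synthesis, and many fall again within hours because their RNAs are short-lived. Growth factors, stress kinases and inflammatory cytokines such as TNF switch them on. So do tissue dissociation and cell sorting, and every library here came from sorted cells. No unsorted sample was used here, so the part of sorting in these levels was not tested.

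The 300 bases around the start of 5 of the genes (250 before and 50 after it) are shown because Junb, Atf3 and Ier3 had the largest increases with TNF, Fosb was the one member that fell and Fos varied most among libraries for its level. They were read from the GRCm39 genome at the canonical transcript starts of GENCODE M39, on the strand of the gene. Capitals mark matches to an NF-kB motif or to the TATA box letters TATAAA.
Fos (chr12:85520408-85520707, plus strand): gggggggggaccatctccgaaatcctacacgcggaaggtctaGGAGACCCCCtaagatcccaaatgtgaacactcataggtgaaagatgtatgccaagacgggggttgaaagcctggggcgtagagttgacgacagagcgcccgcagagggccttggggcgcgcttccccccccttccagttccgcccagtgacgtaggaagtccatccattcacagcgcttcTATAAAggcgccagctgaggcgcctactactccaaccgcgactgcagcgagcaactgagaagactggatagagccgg
Fosb (chr7:19043927-19044226, minus strand): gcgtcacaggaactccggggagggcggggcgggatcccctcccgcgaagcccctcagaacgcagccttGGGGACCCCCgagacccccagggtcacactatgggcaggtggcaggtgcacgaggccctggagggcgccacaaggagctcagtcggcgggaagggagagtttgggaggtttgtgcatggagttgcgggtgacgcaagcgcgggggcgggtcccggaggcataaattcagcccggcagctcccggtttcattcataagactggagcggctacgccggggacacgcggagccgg
Junb (chr8:85705298-85705597, minus strand): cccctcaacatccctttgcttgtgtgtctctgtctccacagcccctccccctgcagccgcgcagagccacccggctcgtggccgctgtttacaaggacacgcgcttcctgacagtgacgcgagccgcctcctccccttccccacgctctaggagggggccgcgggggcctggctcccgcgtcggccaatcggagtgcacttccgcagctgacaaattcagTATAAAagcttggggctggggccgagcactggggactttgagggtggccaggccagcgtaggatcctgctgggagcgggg
Atf3 (chr1:190915488-190915787, minus strand): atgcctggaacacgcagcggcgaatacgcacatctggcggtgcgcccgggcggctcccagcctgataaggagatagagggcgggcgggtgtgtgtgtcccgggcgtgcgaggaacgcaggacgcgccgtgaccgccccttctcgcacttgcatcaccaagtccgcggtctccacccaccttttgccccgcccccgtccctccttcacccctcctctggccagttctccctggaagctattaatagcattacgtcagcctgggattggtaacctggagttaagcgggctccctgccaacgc
Ier3 (chr17:36132318-36132617, plus strand): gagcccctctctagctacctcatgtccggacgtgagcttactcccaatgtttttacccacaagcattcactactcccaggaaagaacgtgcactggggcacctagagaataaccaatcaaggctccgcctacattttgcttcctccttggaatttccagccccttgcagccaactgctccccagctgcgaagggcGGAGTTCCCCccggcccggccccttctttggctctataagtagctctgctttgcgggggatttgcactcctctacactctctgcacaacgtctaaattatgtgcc
Promoters of 8 members were read, and that of Egr1 was not. The NF-kB motif, searched by its consensus on both strands, was matched in Fos (positions -208 to -199 from the start), Fosb (-182 to -173) and Ier3 (-55 to -46). It was matched in 8.97% of 21770 promoters of the same length. TATAAA on the strand of the gene was matched in Fos (-27 to -22) and Junb (-30 to -25), and in 8.95% of all promoters. The cyclic AMP response element letters TGACGTCA, on either strand, were matched in Jund (-214 to -207) and Ier2 (-43 to -36), whose promoters are not printed, and in 2.44% of all. The CArG box, the motif of the serum response factor searched by its consensus on both strands (1.54% of all promoters), and the AP-1 letters TGANTCA on either strand (7.14%) had no match in the 8 windows. No match was found in Atf3 or Jun for any of the 5 motifs. Among the promoters of 11214 tested genes the shares were 9.99% (NF-kB motif), 4.76% (TATAAA), 3.38% (TGACGTCA), 1.36% (CArG box) and 5.18% (TGANTCA). Sites outside these windows, and any site of Egr1, were not searched. A match is only a match of letters.

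Library totals were 7286307 to 15832111 counts and scaling factors 0.418 to 1.50. The Paneth cell list of 8 markers, which holds lysozyme and alpha-defensin genes, summed to 408392 to 609670 CPM (counts scaled by the library total) in every library. The 7 stromal and endothelial markers summed to at most 1.42 CPM and the 4 haemoglobin genes to at most 0.970 CPM. The 9 immune markers summed to 42.5 to 389 CPM, with Cd3e and S100a8 at 0 in all 16 libraries but Cd74 (9.36 to 305 CPM) and Lyz2 (23.9 to 106 CPM) detected in each, and the 6 goblet markers to 3219 to 10239 CPM. The TNF target Nfkbia was 276.6 to 337.3 normalized CPM in PBS+TNF against 15.6 to 24.1 in PBS+PBS. In DEX+TNF it was 330.0 and 381.8 in libraries 1 and 2 but 28.3 and 41.0 in libraries 3 and 4, which overlapped none of the PBS+TNF libraries. The glucocorticoid target Fkbp5 was 43.2 to 135 in all 8 libraries with DEX, libraries 3 and 4 of DEX+TNF included, and 6.51 to 31.0 in the 8 without. Values of the 9 genes that rest on DEX+TNF are therefore given with and without these 2 libraries, and the list counts with them only. The values without them rest on DEX+TNF libraries 1 and 2. Those were the most alike of all pairs within a group (chi-square of the counts per degree of freedom 8.78, the next pair 23.5, the highest 344). Why they were so alike was not tested.

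TNF given after PBS changed 6 of the 9 genes against PBS+PBS, with 5 higher and 1 lower (edgeR, adjusted p under 0.05). Of all tested genes 12.5% were called in this comparison, 7.15% higher and 5.35% lower. The median log2 fold change of the 9 genes was 1.10 against -0.03 over all tested genes. The 5 higher genes were Junb, Atf3, Ier3, Jun and Ier2, and the lower gene was Fosb. The same 6 genes were those whose groups did not overlap, for which the shares over all tested genes were 10.8% higher and 8.64% lower. In these bulk samples, fewer cells that express a gene and less of its RNA per cell cannot be told apart.

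**Figure D1:**
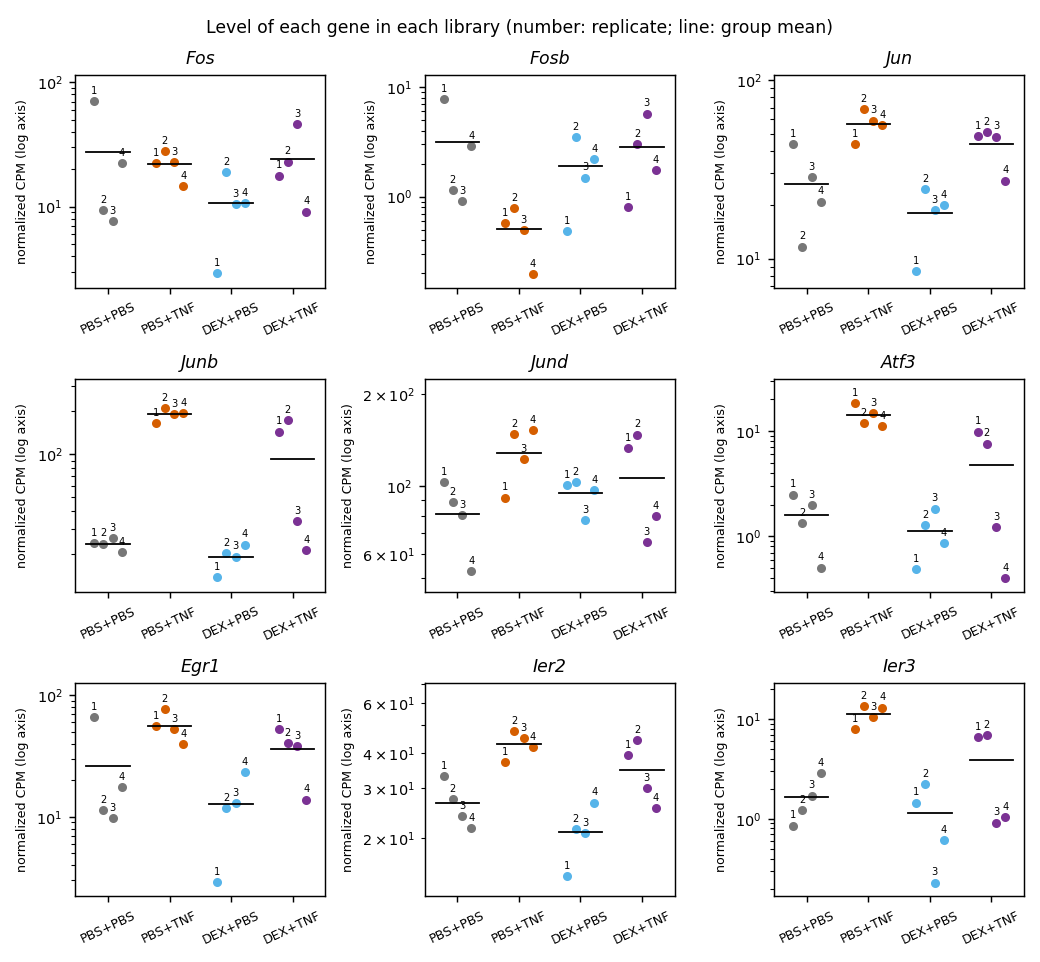
Normalized CPM (log axis) of the 9 genes in each of the 16 libraries, 4 per group, with the replicate number above each point and a line at the group mean. Junb sat between 165 and 211 in all 4 PBS+TNF libraries and between 20.3 and 25.5 in PBS+PBS, whereas Fos reached 70.3 in PBS+PBS library 1 and was between 7.64 and 22.5 in the other 3.

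Fos (ENSMUSG00000021250, chromosome 12, 85520658 to 85524047, plus strand) encodes the founding Fos protein. Its normalized CPM was 70.3, 9.32, 7.64 and 22.5 in PBS+PBS replicates 1 to 4, 22.3, 27.8, 22.9 and 14.7 in PBS+TNF, 2.91, 19.0, 10.4 and 10.8 in DEX+PBS, and 17.7, 23.0, 46.3 and 9.13 in DEX+TNF. Library 1 of PBS+PBS was the highest of all 16 and the 4 groups overlapped. The group means were 27.4 ± 29.4, 21.9 ± 5.41, 10.8 ± 6.57 and 24.1 ± 15.9 (SD, n = 4 each). The difference between PBS+TNF and PBS+PBS was -0.32 on the log2 scale (95% interval -1.64 to 1.00, edgeR adjusted p = 0.813). Without PBS+PBS library 1 it was 0.76, on the other side of 0 (adjusted p = 0.468).

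Fosb (ENSMUSG00000003545, chromosome 7, 19036621 to 19043976, minus strand), a second Fos protein and the source of the long-lived splice form deltaFosB, was the lowest member per length, with 3 to 90 counts in a library. It was 7.71, 1.15, 0.908 and 2.89 normalized CPM in PBS+PBS and 0.578, 0.784, 0.492 and 0.198 in PBS+TNF. These values rest on 90, 18, 17 and 23 counts in PBS+PBS and on only 3, 13, 7 and 4 in PBS+TNF. Every PBS+TNF library was below every PBS+PBS library. The means were 3.16 ± 3.16 and 0.513 ± 0.243 (SD, n = 4 each), a 6.16-fold lower level with TNF (log2 fold change -2.62, SE 0.79, edgeR adjusted p = 0.0373). Without PBS+PBS library 1 the log2 fold change was -1.65 and the call was lost (adjusted p = 0.193). It was lost as well without any single PBS+TNF library, with adjusted p of 0.0571 to 0.105 and log2 fold changes of -2.98 to -2.30.

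Jun (ENSMUSG00000052684, chromosome 4, 94937271 to 94940459, minus strand), the founding Jun protein and main target of the JNK kinases, was 43.5, 11.7, 28.6 and 20.9 CPM in PBS+PBS and 43.5, 68.9, 59.2 and 55.6 in PBS+TNF. The highest PBS+PBS library and the lowest PBS+TNF library differed by less than 0.02 CPM. The means were 26.2 ± 13.5 and 56.8 ± 10.5 (SD, n = 4 each), a 2.17-fold increase (log2 fold change 1.12, SE 0.36, edgeR adjusted p = 0.0479). The call was near the threshold. With 1 library left out at a time it held in 4 of 16 fits (without PBS+PBS 1, DEX+PBS 1, DEX+TNF 3 or DEX+TNF 4) and was lost in the others, with log2 fold changes of 0.88 (without PBS+PBS 2) to 1.48 (without PBS+PBS 1).

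Junb (ENSMUSG00000052837, chromosome 8, 85701113 to 85705359, minus strand), a Jun protein that activates transcription more weakly than Jun and can restrain it, gave the clearest separation. It was 23.6, 23.5, 25.5 and 20.3 CPM in PBS+PBS and 165, 211, 192 and 193 in PBS+TNF. The groups lay far apart and the libraries within each were close, at 23.3 ± 2.14 and 190.3 ± 19.0 (SD, n = 4 each). This was an 8.18-fold increase (log2 fold change 3.03, SE 0.49, edgeR adjusted p = 0.00128), called under all 26 alternatives of the processing with values of 2.92 to 3.08. Prdx2, on the other strand of the locus, overlaps Junb, and whether strand was used in counting is not stated. Prdx2 had 20.0 to 138 CPM and a log2 fold change of -0.07 in this comparison (edgeR adjusted p = 0.961).

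Jund (ENSMUSG00000071076, chromosome 8, 71151599 to 71153265, plus strand), the Jun protein that most cells make without a stimulus, was 103, 88.5, 80.5 and 52.8 CPM in PBS+PBS and 91.7, 148, 123 and 152 in PBS+TNF. The groups overlapped through PBS+TNF library 1. The means of 81.3 ± 21.2 and 128.7 ± 27.9 (SD, n = 4 each) differed by 0.66 on the log2 scale (95% interval 0.08 to 1.25, edgeR adjusted p = 0.131), which did not pass the test. With DEX+TNF libraries 3 and 4 out of the fit it passed at the same size (0.66, adjusted p = 0.0482).

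Atf3 (ENSMUSG00000026628, chromosome 1, 190902493 to 190950241, minus strand), a stress-inducible ATF protein that often represses inflammatory genes, had the largest log2 fold change of the 9. It was 2.48, 1.34, 1.98 and 0.502 CPM in PBS+PBS and 18.5, 11.9, 14.8 and 11.1 in PBS+TNF, with no overlap. The means were 1.58 ± 0.855 and 14.1 ± 3.33 (SD, n = 4 each), an 8.66-fold increase (log2 fold change 3.12, SE 0.71, edgeR adjusted p = 0.00856). It was called under all 26 alternatives, with values of 2.84 to 3.39.

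Egr1 (ENSMUSG00000038418, chromosome 18) encodes a zinc finger factor outside AP-1 that responds to the ERK kinases through serum response factor. It was 66.5, 11.3, 9.72 and 17.6 CPM in PBS+PBS and 55.9, 76.8, 52.8 and 39.9 in PBS+TNF. Library 1 of PBS+PBS lay among the PBS+TNF libraries and the other 3 below all of them. The means of 26.3 ± 27.0 and 56.3 ± 15.3 (SD, n = 4 each) differed by 1.10 on the log2 scale (95% interval -0.14 to 2.35, edgeR adjusted p = 0.255). Without PBS+PBS library 1 the log2 fold change was 2.14 and passed the test (adjusted p = 0.0247), and in no other of the 26 alternatives did it pass.

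Ier2 (ENSMUSG00000053560, chromosome 8, 85387960 to 85389483, minus strand), a nuclear protein of the immediate early response, was 33.2, 27.4, 23.9 and 21.7 CPM in PBS+PBS and 37.2, 47.6, 45.1 and 42.0 in PBS+TNF, with no overlap. The means were 26.6 ± 4.99 and 43.0 ± 4.48 (SD, n = 4 each), a 1.62-fold increase (log2 fold change 0.69, SE 0.22, edgeR adjusted p = 0.0491). The spread was small but the call was at the threshold. With 1 library left out at a time it held in 5 of 16 fits (without PBS+PBS 1, DEX+PBS 1, DEX+TNF 2, DEX+TNF 3 or DEX+TNF 4) and was lost in the others, with log2 fold changes of 0.59 to 0.82.

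Ier3 (ENSMUSG00000003541, chromosome 17, 36132568 to 36133815, plus strand), a regulator of cell survival and a known NF-kB target, was 0.857, 1.21, 1.71 and 2.89 CPM in PBS+PBS and 7.90, 13.4, 10.5 and 13.0 in PBS+TNF. The groups did not overlap. The means were 1.67 ± 0.887 and 11.2 ± 2.57 (SD, n = 4 each), a 6.88-fold increase (log2 fold change 2.78, SE 0.65, edgeR adjusted p = 0.0105). The call held in all 16 fits with 1 library left out, with log2 fold changes of 2.57 to 3.11.

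Per length of exon, the order of the genes changed with TNF. In PBS+PBS Jund was the most abundant at 48.7 normalized CPM per kb, the one gene whose libraries did not overlap those of the next, and Ier2 (17.4), Fos (11.6), Junb (9.77), Jun (8.20) and Egr1 (5.84) followed with overlap between neighbours. Ier3 (1.46), Atf3 (0.646) and Fosb (0.507) were lowest and overlapped each other in turn. In PBS+TNF Junb (79.9 CPM per kb) and Jund (77.2) were at the top and overlapped, Ier2 (28.2) lay below them and above Jun (17.8) without overlap, and Fosb (0.0822) was below Atf3 (5.78) without overlap.

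**Figure D2:**
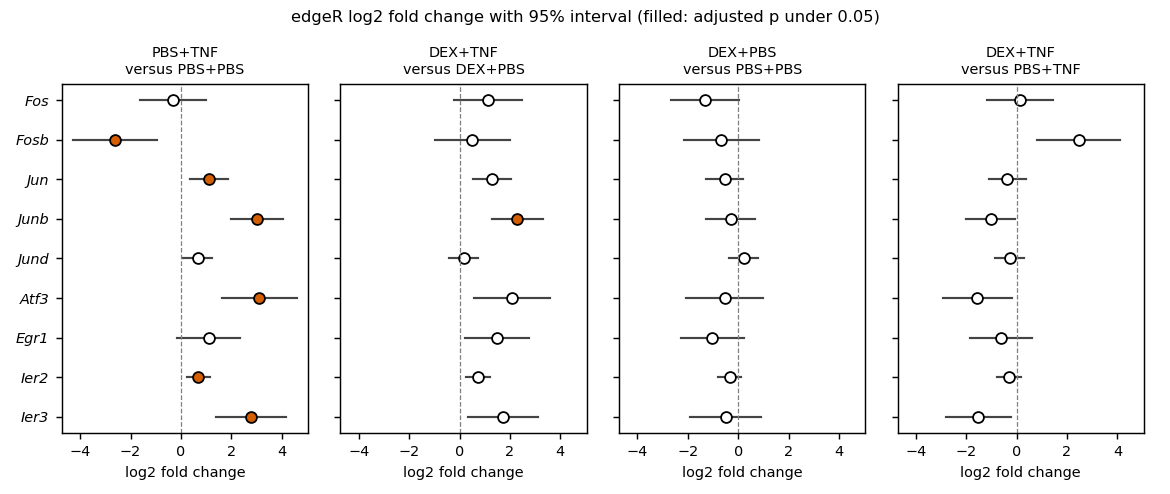
Log2 fold change of each gene in 4 comparisons, with its 95% interval (horizontal line) from the edgeR fit over all 16 libraries, filled where the adjusted p was under 0.05. In PBS+TNF versus PBS+PBS 5 points are filled above 0 and 1 below, and in the other 3 panels the one filled point is Junb at 2.29 in DEX+TNF versus DEX+PBS.

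Other genes of the same pathways were counted from lists, and their counts in PBS+TNF versus PBS+PBS are to be read against the 7.15% of all tested genes called higher, the 5.35% called lower and the median of -0.03. Of 13 other AP-1 genes 8 were tested, and 3 rose with TNF in PBS+TNF versus PBS+PBS, with none lower. These were Fosl2, which encodes a Fos-related protein, from 24.9 ± 10.03 to 125.6 ± 31.0 CPM (2.33 on the log2 scale, SE 0.48, edgeR adjusted p = 0.00504), and the small Maf genes Maff (1.92) and Mafk (0.89). The list median was 0.48. Fosl1, Batf, Batf2 and Batf3, with 2 to 62 counts over all libraries, were among those not tested.

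Of 34 other immediate early genes 26 were tested, and 9 rose and 1 fell, with a median of 0.74. The largest increases were Gem, a small GTP-binding protein (log2 fold change 4.25, from 0.347 ± 0.342 to 6.68 ± 0.694 CPM), Plk3, a stress kinase (2.32), Gadd45b, a stress sensor (2.05), and Ier5 (1.78). Klf4, a factor of epithelial differentiation, was the gene that fell (-0.85). The nuclear receptors Nr4a1, Nr4a2 and Nr4a3 had values of -1.44, -0.46 and 0.91 and did not pass the test (edgeR adjusted p = 0.0866, 0.507 and 0.490).

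Among 22 upstream kinases and factors, all tested, 4 rose and 2 fell, with a median of 0.28. Crem, a cyclic AMP response factor, had a log2 fold change of 3.22, with 2.46 to 7.16 CPM in PBS+PBS and an uneven 108, 33.2, 23.2 and 16.4 CPM in PBS+TNF replicates 1 to 4. The log2 fold change was 2.02 for Map3k8, a kinase that feeds the ERK pathway downstream of TNF, 1.59 for Elk4, a partner of serum response factor, and 1.30 for Map2k3, an activator of p38. Map2k6, another activator of p38, was lower (-1.05), and so was Mapk14, p38 alpha itself (-0.72). No gene of the 3 lists was called in the other comparisons (edgeR), in each of which at most 0.339% of all tested genes were called.

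The calls of these list genes were recomputed under the alternatives used for the 9 genes, a step added after the data were seen. Fosl2, Ier5, Crem, Elk4 and Map2k3 were called in all 26, and Gem and Map3k8 in each of the 16 fits with 1 library left out. Maff lost its call without PBS+PBS library 2 (log2 fold change 1.76, edgeR adjusted p = 0.0553) and Plk3 without PBS+PBS library 1 (2.26, adjusted p = 0.0529). Mafk was lost in 12 of the 16 fits (in those other than without PBS+TNF 1 or DEX+TNF 2, 3 or 4) and Gadd45b without any single library of the groups compared, with adjusted p of up to 0.128 and 0.0947. Of the lower genes, Klf4 was lost in 4 of the 16 fits (without PBS+PBS 1, 2 or 3 or PBS+TNF 3), Map2k6 in 5 (without PBS+PBS 1, 2 or 4 or PBS+TNF 2 or 4) and Mapk14 in 7 (without PBS+PBS 1, 2 or 3 or any PBS+TNF library).

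Heat shock genes were counted as a list because they too are induced when tissue is dissociated. Of 13 such genes 10 were tested, and none was called in any comparison (edgeR). The list median in PBS+TNF versus PBS+PBS was -0.0029, against -0.03 over all tested genes. In this comparison 3 of the 10 were higher without overlap between the groups (10.8% of all tested genes) and 0 lower (8.64%). Bag3 was nearest to a call (log2 fold change 0.88, edgeR adjusted p = 0.0548). Hspa1a, Hspa1b and Hspb1, stress-inducible members, had 22, 83 and 1 counts over all 16 libraries and were not tested.

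DEX alone called none of the 9 genes in DEX+PBS versus PBS+PBS, where 0.00847% of all tested genes, a single gene, were called (edgeR), and none of the 9 had an unadjusted p under 0.05 (1.9% of all tested genes) or groups without overlap (0.999% higher and 0.881% lower). The values of 8 genes were below 0, with a median of -0.54 against -0.02 over all tested genes, and Jund was at 0.22. The values furthest below 0 were Fos at -1.33 (95% interval -2.68 to 0.02) and Egr1 at -1.02 (-2.28 to 0.24). Both rested in part on PBS+PBS library 1, without which they were -0.25 and 0.02. The glucocorticoid target Fkbp5 was not called in this comparison either, although its groups did not overlap (log2 fold change 2.27, edgeR adjusted p = 0.282). A missing call here thus does not show that a gene was unchanged.

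The means in DEX+PBS were 17.9 ± 6.77 CPM for Jun, 19.0 ± 3.93 for Junb and 94.5 ± 11.6 for Jund (SD, n = 4 each). Those of the sparse genes were 1.92 ± 1.27 for Fosb, 1.11 ± 0.576 for Atf3 and 1.13 ± 0.894 for Ier3. Egr1 was at 12.8 ± 8.41 and Ier2 at 20.9 ± 4.91. Library 1 of DEX+PBS, the shallowest of the 16 with 7286307 counts, was the lowest of its group for 7 of the 9 genes, with Fos and Egr1 both at 2.91 CPM. The part of its depth was not tested.

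When TNF followed DEX, 1 of the 9 genes, Junb, was called higher against DEX+PBS, where 0.339% of all tested genes were called and 0.322% called higher (edgeR). All 9 values were above 0, with a median of 1.28 against 0.03 over all tested genes, and 6 had an unadjusted p under 0.05 (10.4% of all tested genes). Junb was 13.7, 20.1, 19.0 and 23.1 CPM in DEX+PBS and 144, 174, 33.8 and 21.0 in DEX+TNF. Libraries 1 and 2 of DEX+TNF were close to the PBS+TNF libraries, library 3 was just above the DEX+PBS libraries and library 4 lay among them. On the log2 scale the difference was 2.29, with an SE of 0.48 (edgeR adjusted p = 0.0491). It was called in 7 of 26 alternatives, and with 1 library left out it held without DEX+TNF 3 (2.57) or DEX+TNF 4 (2.63) and was lost without any other (1.80 to 2.41, adjusted p of 0.068 to 0.231).

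Atf3 and Ier3 were split by the same libraries. Atf3 was 9.84 and 7.60 CPM in DEX+TNF libraries 1 and 2 and 1.22 and 0.399 in libraries 3 and 4, against 0.485 to 1.83 in DEX+PBS. Ier3 was 6.61 and 6.95 in libraries 1 and 2 and 0.919 and 1.05 in libraries 3 and 4, against 0.229 to 2.23 in DEX+PBS. For both, libraries 3 and 4 were at the DEX+PBS level. Jund was 133, 147, 65.5 and 79.8 against 77.4 to 103 in DEX+PBS, and Ier2 39.4, 44.2, 30.01 and 25.5 against 14.7 to 26.7. Libraries 1 and 2 were above all DEX+PBS libraries for both genes, while library 3 was above them for Ier2 and below them for Jund.

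Jun, Fos and Egr1 did not follow that split. Jun was 48.6, 50.8, 48.2 and 27.3 CPM in DEX+TNF, above every DEX+PBS library (8.50, 24.5, 18.7 and 20.0), with a log2 fold change of 1.28 that missed the threshold (SE 0.36, edgeR adjusted p = 0.149). It was the one member without overlap in this comparison, where 2.06% of all tested genes were higher and 2.63% lower without overlap. Egr1 was 52.6, 40.3, 38.0 and 13.9 in DEX+TNF and 2.91, 11.8, 13.1 and 23.5 in DEX+PBS (log2 fold change 1.48, adjusted p = 0.368). Library 3, low for Atf3 and Ier3, was the highest of its group for Fos (46.3) and Fosb (5.72). The differences from DEX+PBS were 1.14 for Fos (adjusted p = 0.580) and 0.50 for Fosb (adjusted p = 0.929). Without DEX+TNF libraries 3 and 4 the log2 differences from DEX+PBS were 1.84 for Egr1, 0.90 for Fos, 0.57 for Jund and -0.055 for Fosb, and none of these 4 passed the test (edgeR).

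Marker sums of other cell types set library 4 of DEX+TNF apart, while library 3 lay within the range of other groups for enterocyte and tuft cell markers. The 7 enterocyte markers summed to 4.52, 5.28, 28.0 and 442 CPM in libraries 1 to 4, against up to 120 in PBS+PBS. The 5 tuft cell markers summed to 0.608, 0.0825, 119 and 855 CPM, against up to 165 in PBS+TNF, and the 4 stem cell markers to 311, 257, 332 and 1825 CPM. The Paneth cell markers summed to 419125 CPM in library 4 and 573892 in library 3. The part of these cells in the values was not tested. Without both libraries 5 members were called against DEX+PBS (edgeR): Junb (log2 fold change 3.06), Atf3 (2.97), Ier3 (2.54), Jun (1.46) and Ier2 (0.99), with 2 DEX+TNF libraries left. In that fit 1286 of all 12223 tested genes were called. The 2 libraries left out were chosen by their low Nfkbia, a TNF target, so this count is not independent of the TNF response.

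With DEX before TNF none of the 9 genes was called against TNF alone (edgeR, DEX+TNF versus PBS+TNF, 0.339% of all tested genes called), although 4 had an unadjusted p under 0.05 (11.9% of all tested genes). Fkbp5 was not called here either, although its groups did not overlap (log2 fold change 1.65, edgeR adjusted p = 0.109). Fosb was the one member higher without overlap, at 0.807, 2.99, 5.72 and 1.75 CPM in DEX+TNF against at most 0.784 in PBS+TNF (log2 fold change 2.45, 95% interval 0.80 to 4.11, adjusted p = 0.196). Atf3 (-1.56, -2.94 to -0.18, adjusted p = 0.343) and Ier3 (-1.54, -2.83 to -0.25, adjusted p = 0.321) were lower without overlap. Of all tested genes 3.47% were higher and 2.91% lower without overlap. Junb had -1.03 (SE 0.46, adjusted p = 0.381), with overlap.

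Without DEX+TNF libraries 3 and 4 the values nearer to 0 were -0.68 for Atf3, -0.73 for Ier3 and -0.26 for Junb, and Fosb had 1.91 (edgeR adjusted p of 0.504 to 0.646 for the 4). Jun (-0.38), Jund (-0.28), Egr1 (-0.64), Ier2 (-0.31) and Fos (0.13) had intervals that held 0 with all libraries. Their values without the 2 libraries were -0.19, 0.12, -0.28, -0.0385 and -0.10. The 2 libraries were chosen by their low Nfkbia, a TNF target, so the values without them are not independent of the TNF response. They do not show that DEX leaves this response unchanged. The mean of Fos was 24.1 ± 15.9 CPM in DEX+TNF and 21.9 ± 5.41 in PBS+TNF, and that of Ier2 34.8 ± 8.55 and 43.0 ± 4.48 (SD, n = 4 each).

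The interaction, the TNF difference after DEX minus that after PBS, was called for no gene at all (0% of tested genes, edgeR, with 642 genes, 5.44%, at an unadjusted p under 0.05 and 9 genes called by DESeq2). Fosb was the one member with an unadjusted p under 0.05, at 3.13 (95% interval 0.90 to 5.35, adjusted p = 0.783), and at 2.57 without DEX+TNF libraries 3 and 4. Its mean went from 3.16 to 0.513 CPM with TNF after PBS and from 1.92 ± 1.27 to 2.81 ± 2.13 after DEX. The intervals of Junb (-2.11 to 0.62), Atf3 (-3.09 to 1.04) and Ier3 (-2.96 to 0.87) held 0. Without DEX+TNF libraries 3 and 4 the interaction was 0.0301 for Junb, -0.13 for Atf3, -0.25 for Ier3, 1.22 for Fos, 0.74 for Egr1, 0.34 for Jun, 0.30 for Ier2 and -0.10 for Jund. These comparisons share control libraries and are not independent of each other. The values without libraries 3 and 4 also rest on a choice by low Nfkbia, a TNF target. They do not show that the TNF response was the same after DEX as after PBS.

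Of the 9 genes 7 varied more among libraries of the same group than most genes of their level. The residual SD of log2 CPM about the group means was compared, as a description, with that of the 500 tested genes nearest in mean level. Fos (SD 1.05) was above 99.8% of its neighbours, Egr1 (0.998) above 99%, Atf3 (1.17) above 96%, Junb (0.777) above 93.6% and Ier3 (1.03) above 90.6%. Jun and Fosb were above 84.6% and 84.2%. Jund (0.400, above 50.8%) and Ier2 (0.295, above 29.4%) were ordinary for their level.

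The spread came from different libraries for different genes. Fos, Fosb and Egr1 were high in PBS+PBS library 1, by 1.93, 1.72 and 1.80 on the log2 scale above the group mean, and low in DEX+PBS library 1, by -1.57, -1.45 and -1.75. Junb and Atf3 varied mainly in DEX+TNF, and without libraries 3 and 4 of that group their residual SDs were 0.216 and 0.650. That of Ier3 was then 0.769, and Ier3 also varied in DEX+PBS, by 1.22 in library 2 and -1.44 in library 3. In PBS+PBS library 1 the sum of the heat shock list was 688 CPM against 674 to 850 in the other 3. The sparse gene Hspa1b was higher there, at 1.11 CPM against 0.128, 0.267 and 0.251, and Dnajb1 was 13.4 against 10.2 to 26.1. The part of dissociation stress in this library was not tested.

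**Figure D3:**
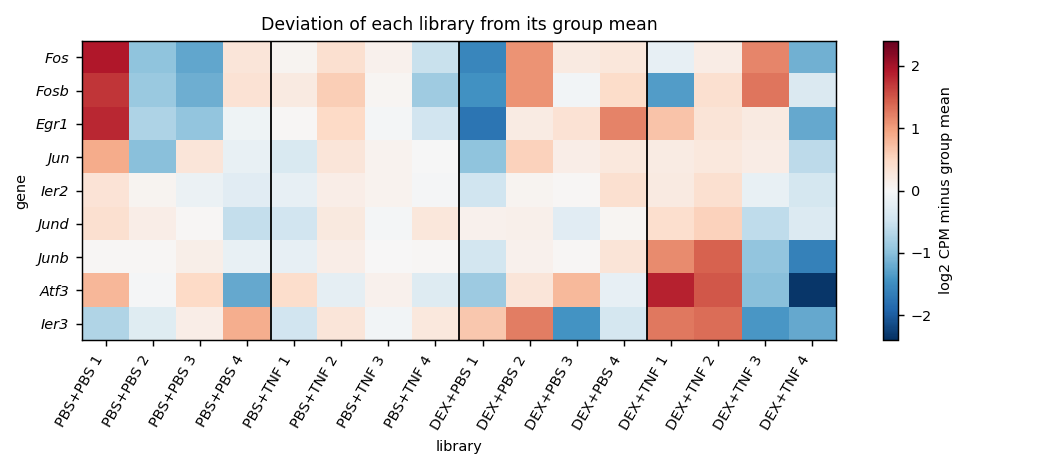
Log2 CPM of each gene (rows) in each library (columns, vertical lines between groups) minus the mean of its group, red above and blue below. Fos, Fosb and Egr1 share the red column at PBS+PBS library 1 (1.93, 1.72 and 1.80) and the blue column at DEX+PBS library 1, whereas Junb, Atf3 and Ier3 are red in DEX+TNF libraries 1 and 2 and blue in libraries 3 and 4.

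Within groups, Fos went with Fosb, and less firmly with Egr1 and Jun. Pearson's r of the deviations from the group means over 16 libraries was 0.912 for Fosb (Spearman's rho 0.929), 0.852 for Egr1 (rho 0.738) and 0.762 for Jun (rho 0.621). The permutation p within groups (100000 draws, two-sided, adjusted over 8 relations) was 0.00232, 0.0140 and 0.0334 for r, and 0.00016, 0.0224 and 0.114 for rho. Without the libraries farthest from the median of Fos, PBS+PBS 1 and DEX+PBS 1, r was 0.856, 0.713 and 0.579. Without PBS+PBS 1, DEX+PBS 1 or DEX+TNF 4 alone, r was 0.874, 0.888 and 0.943 for Fosb, which still passed the test. For Egr1 it was 0.766, 0.798 and 0.828 and for Jun 0.660, 0.673 and 0.727, and neither passed (permutation, adjusted p of 0.0541 to 0.0746 for Egr1 and 0.115 to 0.205 for Jun). Without DEX+TNF libraries 3 and 4, r was 0.943 for Fosb, 0.887 for Egr1 and 0.762 for Jun, whose relation then did not pass the test (permutation, adjusted p = 0.110). The other 5 genes had r of 0.526 (Ier2), 0.266 (Atf3), 0.153 (Junb), -0.02 (Jund) and -0.116 (Ier3), with adjusted p of 0.167 or more. The unadjusted p were 0.00029, 0.00349 and 0.0125 for the first 3. No batch label was given, so no relation within batches was computed.

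**Figure D4:**
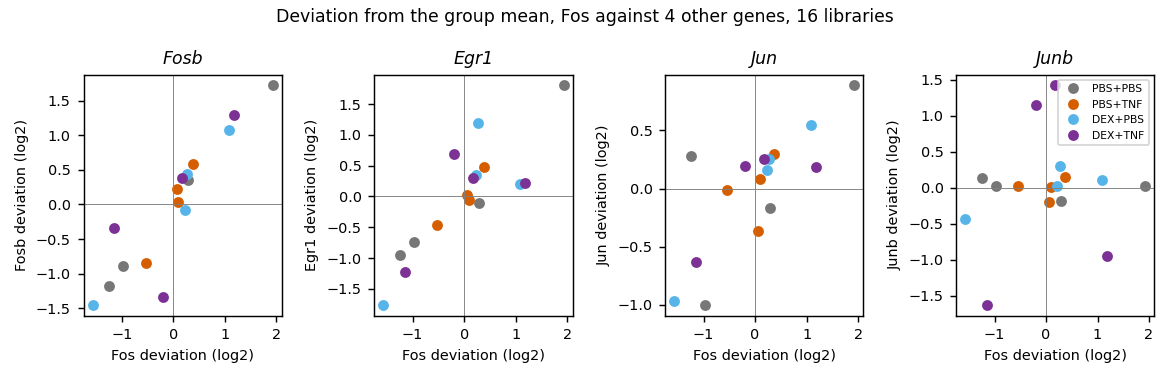
Deviation of log2 CPM from the group mean for Fos (horizontal axis) against Fosb, Egr1, Jun and Junb (vertical axes), 1 point per library coloured by group. The points of Fosb lie along a rising line (r = 0.912), whereas those of Junb do not (r = 0.153), with DEX+TNF libraries at its top and bottom.

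The genes whose levels were most like those of 3 members were sought among 7817 genes whose mean was 5 CPM or more, by Pearson's r of log2 CPM over the 16 libraries, differences between groups included. Fos was most like Egr1 (0.825), 1810030O07Rik (0.789) and AI597479 (0.789). Junb was most like Irf1 (0.994), Mpzl1 (0.988) and Sgms1 (0.988). Ier3 was most like Zfand2a (0.940), Rhbdl3 (0.940) and Tnfaip3 (0.939). Without DEX+TNF libraries 3 and 4 the first of each was at 0.838, 0.996 and 0.948. All these values share the same libraries and depths and were picked as the highest, and no test was made.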

How the data were processed

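The authors deposited 1 table of raw read counts per Ensembl gene for 16 libraries of sorted PCs. Stranded mRNA libraries were made from total RNA. The submitters' processing notes name FastQC 0.12, STAR 2.7.10a, DESeq2 and mm39. The counting program, its use of strand and its handling of shared reads are not given in the sources used here, so counts of overlapping genes (Jun, Junb, Jund, Atf3 and Ier3) are uncertain. GENCODE M39 held 54749 of the 55414 identifiers.

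The deposited counts were filtered with filterByExpr, scaled by TMM and fitted with the robust quasi-likelihood method of edgeR 4.0.16 (R 4.3.3), with a mean per group over 16 libraries. P-values were adjusted by Benjamini-Hochberg within each of 5 contrasts over all 11809 tested genes and called under 0.05. Normalized CPM use TMM. Log2 CPM for spread, relations and likeness have a prior count of 2. P-values measure the spread between these samples. Members, lists and alternatives were chosen with earlier results of these data known. Named list genes are those called, at most the 4 largest per list, comparison and direction. Bag3 and Dnajb1 of the heat shock list were named without a call. All 9 members, Nfkbia and Fkbp5 were named before these tests were run, though not without knowledge of the data. Prdx2, Nr4a1, Nr4a2, Nr4a3 and the untested genes were named after their values were seen. Single values of some listed genes are not reported here. Alternatives were other scaling factors, filters, DESeq2 1.42.0, a threshold of 0.01, the replicate number as a block, a fit of only the groups compared, and libraries left out.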

Additional observations from a re-analysis of the deposited data

Results flagged for a closer look

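Among 36 sets of 4 libraries (9 genes in 4 groups), 2 held a library whose distance from its nearest neighbour took a larger share of the whole range than Dixon's 95% critical value allows. Chance gives such a result in about 1 in 20 sets. Jun was 27.3 normalized CPM in DEX+TNF library 4, with the next library at 48.2 and the highest at 50.8, and the gap was 0.889 of the range. Egr1 was 66.5 normalized CPM in PBS+PBS library 1, with the next at 17.6 and the lowest at 9.72, and the gap was 0.861 of the range. Both gaps were taken on normalized CPM and were not computed for log2 CPM, on which they can differ.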

How the results depend on the processing

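Junb and Atf3 were called higher in PBS+TNF versus PBS+PBS in 26 of 26 alternatives and Ier3 in 24 of 25, all 3 in each of the 16 fits with 1 library left out. Fosb was called in 18 of 25, Ier2 in 11 of 26 and Jun in 10 of 26. The number of members called in this comparison, 6, was 2 at an adjusted p under 0.01, 3 with the replicate block, 7 without both of DEX+TNF 3 and 4, and 3 to 6 with 1 library left out. In DEX+TNF versus DEX+PBS the 1 member called became 0 with upper-quartile factors, no low-count filter, an adjusted p under 0.01, the replicate block or only the 2 groups compared, 2 with DESeq2, 5 without both of DEX+TNF 3 and 4, and 0 to 3 with 1 library left out (3 without DEX+TNF 4). The 3 relations of Fos were 1 to 3 with 1 library left out (1 without PBS+PBS 1, DEX+PBS 1 or DEX+TNF 4). Upper-quartile factors moved the median of all genes in PBS+TNF versus PBS+PBS from -0.03 to -0.15. A mean of at least 5 CPM left Fosb and Ier3 untested. Without both of DEX+TNF 3 and 4, of all 12223 tested genes 2166 were called in PBS+TNF versus PBS+PBS and 1286 in DEX+TNF versus DEX+PBS.

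Signs changed for values that were not called. Without both of DEX+TNF 3 and 4, Fos in DEX+TNF versus PBS+TNF was -0.10, Fosb in DEX+TNF versus DEX+PBS -0.055, Junb in the interaction 0.0301, Jund in DEX+TNF versus PBS+TNF 0.12 and r of Fos and Jund 0.0794. With the replicate block Egr1 in the interaction was -0.0342. With 1 library left out, log2 values ran from -0.63 to 0.76 (Fos, PBS+TNF versus PBS+PBS), -0.40 to 0.41 (Fos, DEX+TNF versus PBS+TNF), -1.13 to 0.29 (Fosb, DEX+PBS versus PBS+PBS), -0.088 to 0.96 (Fosb, DEX+TNF versus DEX+PBS), -0.029 to 0.34 (Jund, DEX+TNF versus DEX+PBS), -1.50 to 0.016 (Egr1, DEX+PBS versus PBS+PBS) and, in the interaction, -0.20 to 0.41 (Jun), -0.66 to 0.86 (Egr1) and -0.11 to 0.18 (Ier2). The r with Fos ran from -0.15 to 0.359 (Junb), -0.288 to 0.217 (Jund) and -0.304 to 0.0619 (Ier3). The cause was not tested.

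The replicate numbers were not taken to pair the libraries. Deviations of same-numbered libraries correlated at -0.365 to 0.504, over 0.1 in 12 of 24 pairs, those of other numbers at -0.564 to 0.486, and 7 of 16 libraries correlated best with their own number. Same-number pairs ran from -0.148 to 0.274 for replicate 1, 0.153 to 0.412 for 2, -0.365 to 0.317 for 3 and -0.283 to 0.504 for 4. Pairing was thus not excluded, and with the replicate block 3 members rather than 6 were called in PBS+TNF versus PBS+PBS.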
